A study of Mus musculus with 6 samples.

Results

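The genes described here build and pull the actin cytoskeleton of NIH3T3, a continuously growing line of fibroblasts from mouse embryos. They were chosen by name: 39 symbols of actins, tropomyosins, transgelins and calponins, myosin subunits, filament crosslinkers, focal adhesion proteins, LIM proteins and the transcription factor SRF. All 39 were among the 55401 genes of each deposited table, and all 39 passed the filter on low counts. Messenger RNA was sequenced in 3 libraries of wild-type (WT) cells given IPRN and 3 libraries of wild-type cells given DMSO vehicle, the solvent. Angelicin, a furanocoumarin of plants, is named in the title of the series. Per its design text, hydrogen peroxide and TGF-β were added to model cancer-associated fibroblasts, followed by IPRN. The labels do not spell out IPRN, give no dose or time, and do not state if vehicle cells were given these stimuli too, so the comparison below is IPRN against DMSO as labelled. All libraries come from 1 cell line, and the labels do not say whether they were separate cultures.

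Actin filaments are polymers of actin wrapped by tropomyosin, crosslinked by filamins and α-actinins, and pulled by myosin II. In fibroblasts they are bundled into stress fibres, whose ends are tied to integrins at focal adhesions by talin and vinculin. TGF-β is known to drive fibroblasts toward myofibroblasts, which are recognised by smooth muscle α-actin (Acta2) in their stress fibres. Many genes of this apparatus are bound by SRF at a sequence called the CArG box. SRF works with the cofactors MRTF-A and MRTF-B, which bind unpolymerised actin and enter the nucleus when it is used up.

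Values are CPM (counts scaled by sequencing depth, here the deposited counts over each library's normalised size) unless FPKM is named. FPKM, also per gene length, is the scale used to compare levels between genes. The lengths behind the deposited FPKM are not given. Counts over FPKM imply 3.54 kb for Myl6, 7.21 kb for Tpm1 and 13.4 kb for Cald1. Ranks, shares and ratios between genes depend on these lengths. A gene was called higher or lower at an adjusted p under 0.05 in edgeR's quasi-likelihood test over all 17159 genes tested, and adjusted p-values are from edgeR throughout. Total counts ran from 63594179 to 74183334 in the IPRN libraries and from 60320282 to 78629444 in the DMSO libraries, and the smallest count of any of the 39 genes in a library was 90. IPRN 1 stood apart from its replicates: chi-square per degree of freedom was 103 and 111 for its pairs with IPRN 2 and IPRN 3, against 54.8 between IPRN 2 and IPRN 3, and 38.0 to 45.6 between DMSO libraries. The fibroblast label held, with all 10 fibroblast markers detected and summing to between 22718 and 25407 CPM in IPRN libraries and between 20904 and 21924 CPM in DMSO libraries. Of those 10 markers, Fn1 was higher and Prrx1 lower. Markers of other tissues were present at low levels. The 22 liver markers summed to 144, 62.2 and 23.8 CPM in IPRN 1, 2 and 3, against 45.4, 110.1 and 84.8 CPM in DMSO 1, 2 and 3. The leukocyte markers summed to 14.4, 14.7 and 119.9 CPM in IPRN 1, 2 and 3, against 3.25, 11.6 and 13.7 CPM in DMSO 1, 2 and 3. Alb, the liver's albumin gene, was at 0 in DMSO 1 and at 0.186 CPM in IPRN 3, against 11.5 to 42.8 CPM in the other 4 libraries. Hp (haptoglobin) did not follow Alb, with 15.3, 16.0 and 14.97 CPM in IPRN 1, 2 and 3, against 39.4, 40.9 and 41.2 CPM in DMSO 1, 2 and 3. It was the only one of the 22 that was called (0.38-fold, adjusted p = 0.000188) and made up most of the liver sum in IPRN 3 and DMSO 1. Of the leukocyte markers, Lyz2 reached 98.0 CPM in IPRN 3, and Cd3e was at 0 in all libraries. Endothelial, epithelial and erythroid markers each summed to less than 4 CPM in every library. The part of these transcripts in the results was not tested beyond fits that leave out or set apart the libraries that differ in it.

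Most of the calls among these genes were small increases with IPRN, among them those of β-actin, non-muscle myosin IIA, filamin A, talin 1 and the calponin Cnn2. Of the 39 genes, 15 (38.5%) were called higher, against 2.46% of all genes tested and 6.85% of the 2131 genes that average 100 CPM or more, as 27 of the 39 do. The 39 were chosen with earlier results of these data known, so these shares describe the list and are not independent support. One gene, Tes, was called lower (2.56%), against 3.01% of all genes tested and 9.06% of the highly expressed ones. In either direction 5.47% of all genes and 15.9% of the highly expressed ones were called. The folds of the 15 higher calls ran from 1.16 to 1.49. Of the 23 genes that did not pass, 19 had a positive log2 fold change, and the median over all 39 was 0.24, against 0.0016 over all genes tested and -0.020 over the highly expressed ones. The 3 IPRN and 3 DMSO libraries did not overlap in 29 of the 39 genes (74.4%), against 29.6% of all genes, and 27 of these were higher in IPRN (14.9% of all genes) and 2 lower (14.7% of all genes). The share without overlap was not counted over the highly expressed genes alone, so abundance is not matched in that comparison. As a share of all counts, the 39 genes together made up 2.30 ± 0.0410% in IPRN libraries, against 1.88 ± 0.0229% in DMSO libraries (SD, n = 3 each).

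IPRN 1, the library that stood apart, was the highest of the IPRN libraries in 26 of the 39 genes (66.7%) and the lowest in 7 (17.9%). Over all genes tested it was the highest in 38.9% and the lowest in 35.9%, and over genes averaging 100 CPM or more in 43.8% and 40.7%. Its part in the calls was measured by leaving it out: 14 genes were then called higher and Tes lower. Leaving out any other library left fewer, with 2 higher calls when DMSO 1 was left out, 3 for DMSO 2, 4 for DMSO 3, 5 for IPRN 2 and 7 for IPRN 3, and none lower in these 5 fits. At an unadjusted p under 0.05, between 22 and 27 of the 39 genes were higher and 1 or 2 lower in each of the 6 fits. The share of all genes at that unadjusted threshold was not counted, here or below, so such counts have no background beside them. Without both DMSO 1 and IPRN 3, the libraries with the least Alb, none of the 39 was called in either direction, against 23 higher and 2 lower at an unadjusted p under 0.05. With a term for that pair of libraries in the fit of all 6, 9 genes were called higher and Tes lower. The median log2 fold change of the 39 genes stayed between 0.23 and 0.28 in the 17 alternatives run.

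**Figure D1:**
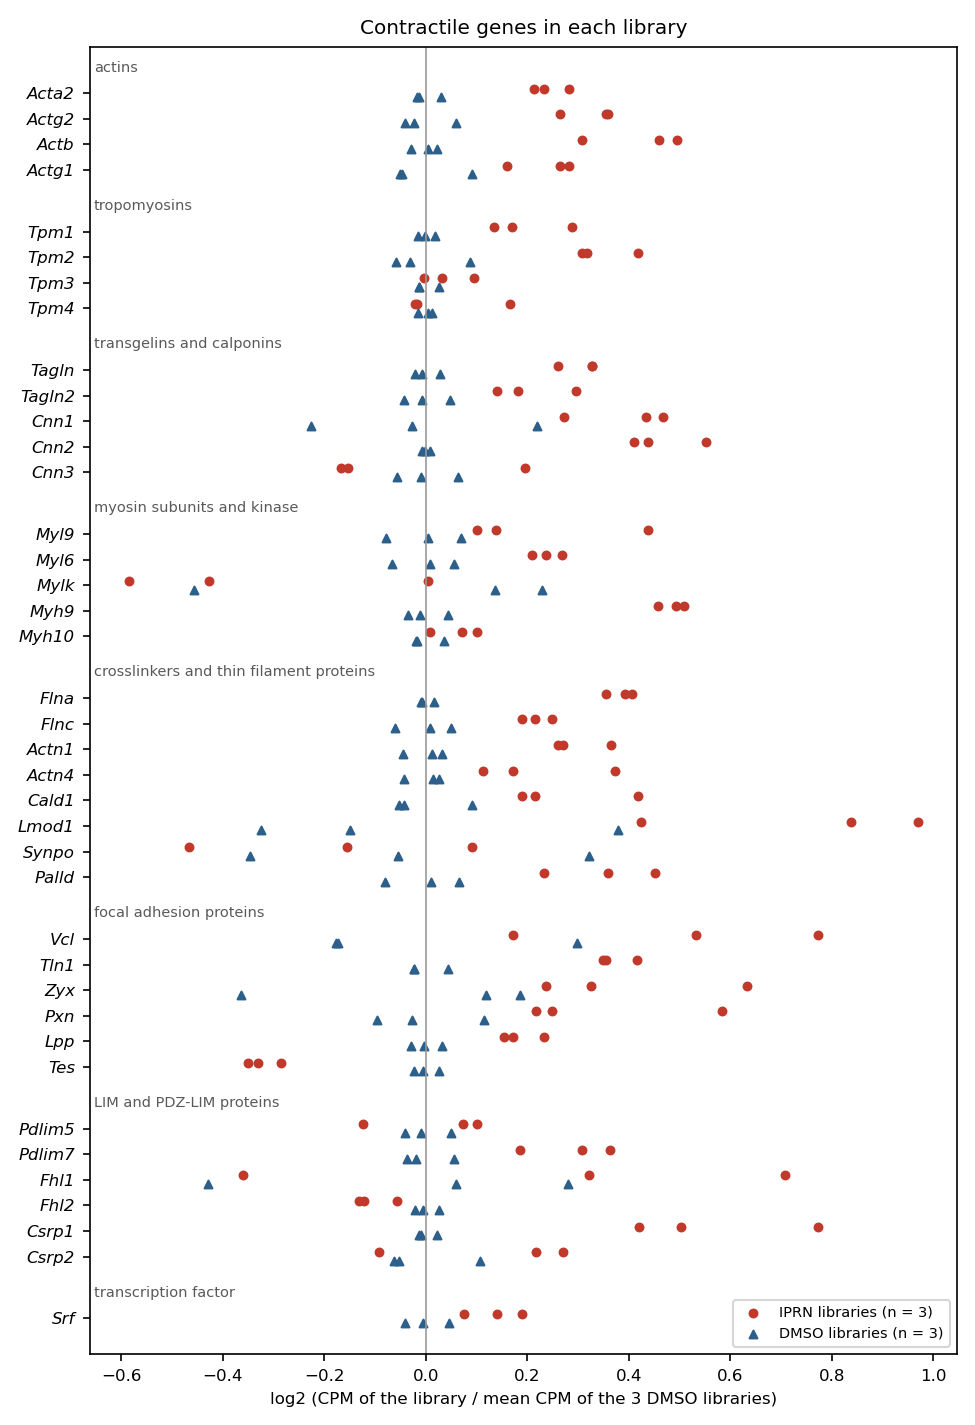
Each row is a gene, grouped by role, and each point a library (circles IPRN, triangles DMSO, n = 3 each), placed on the log2 scale at its CPM over the mean CPM of the 3 DMSO libraries. The IPRN circles lie to the right of every DMSO triangle in 27 of 39 rows and to the left of every triangle in 2, Tes and Fhl2.

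**Figure D2:**
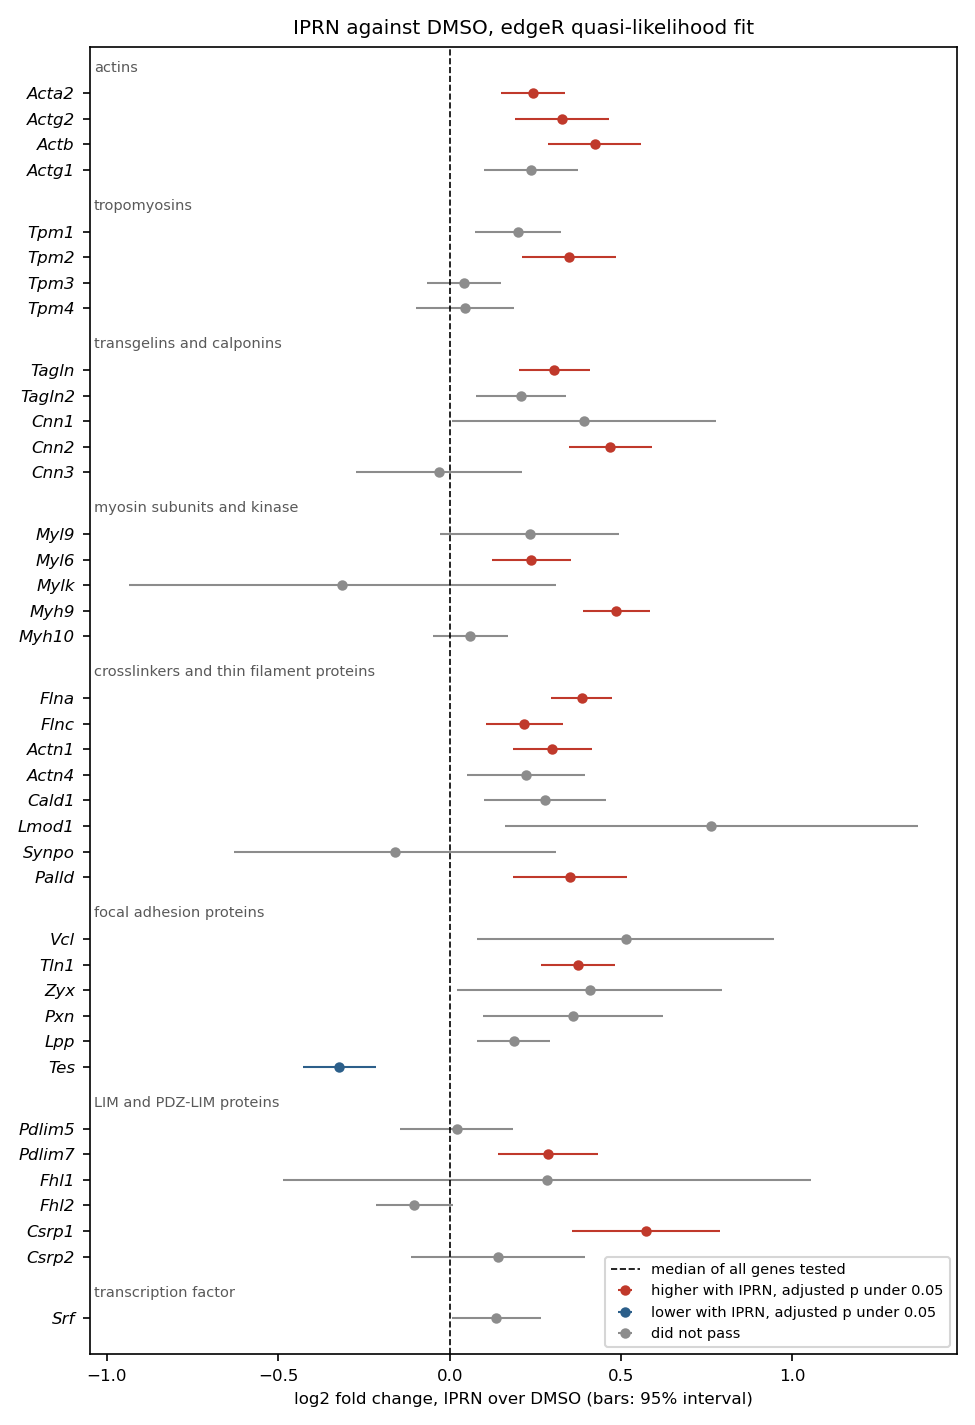
Each point is a gene's log2 fold change, IPRN over DMSO, with its 95% interval from the edgeR fit of 3 against 3 libraries. The 15 genes called higher are red, Tes is blue, the 23 that did not pass are grey, and the dashed line is the median of all genes tested.

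SRF, the transcription factor that binds CArG boxes, had a small positive difference that did not pass. Srf had 73.4, 75.9 and 70.2 CPM in IPRN 1, 2 and 3, against 68.7, 64.7 and 66.3 CPM in DMSO 1, 2 and 3. The 2 groups did not overlap, and the difference was 1.10-fold (95% interval 1.004 to 1.20, log2 0.14 ± 0.0552, adjusted p = 0.208). Of 5 SRF cofactor genes tested, edgeR and limma-voom called none and DESeq2 called 1 higher, and 2 were higher at an unadjusted p under 0.05 in edgeR (median log2 fold change 0.18). Mrtfa averaged 64.7 ± 11.0 CPM in IPRN libraries, against 46.0 ± 2.72 CPM in DMSO libraries (1.41-fold, adjusted p = 0.0687). Myocd, the cofactor of smooth and cardiac muscle, was at 0 in all 6 libraries.

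The promoters of these genes were searched for CArG boxes. Stretches are printed for Srf, Cnn2, Actg1, Vcl, Myl9, Myl6 and Acta2, which were picked by name. Those of the other genes found with a box are not printed. RefSeq promoter sequences on GRCm38.p6 were matched by symbol for 33 of the 39 genes, and those of Actb, Tagln, Actg2, Pxn, Csrp2 and Synpo were not used here. Each window ran from 250 bases before to 50 after a RefSeq start site. Some genes have several windows, and a gene was counted once if any of its windows held a box. Capitals mark the box (for Acta2, a near box), which is CC, a core of A and T, then GG, and sequences run 5′ to 3′ on the gene's strand. Srf itself has a pair of boxes that start 82 and 62 bases before its start site.
Srf, chr17:46556195-46556264, minus strand: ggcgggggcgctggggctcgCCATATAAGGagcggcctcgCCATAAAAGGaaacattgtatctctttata
Cnn2, chr10:79988524-79988573, plus strand: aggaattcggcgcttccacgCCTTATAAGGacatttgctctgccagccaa
Actg1, chr11:120348556-120348605, minus strand: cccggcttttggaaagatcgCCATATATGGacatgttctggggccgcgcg
Vcl, chr14:20929151-20929200, plus strand: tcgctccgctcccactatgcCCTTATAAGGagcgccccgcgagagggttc
Myl9, chr2:156775283-156775332, plus strand: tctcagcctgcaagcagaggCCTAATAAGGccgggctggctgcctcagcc
Myl6, chr10:128493040-128493069, minus strand: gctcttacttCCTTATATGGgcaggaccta
Acta2, chr19:34255438-34255467, minus strand: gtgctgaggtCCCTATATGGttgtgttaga
Acta2, chr19:34255388-34255417, minus strand: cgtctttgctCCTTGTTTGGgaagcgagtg
The boxes start 56 bases before the start site in Cnn2, 90 in Actg1, 227 in Vcl, 161 in Myl9 and 50 in Myl6. For Myl6 that is a start site inside the gene, and its window at the gene's 5′ end (chr10:128493837-128494136) held no exact or near box. Acta2 has no exact box in its window. Its pair of near boxes, with 1 G or C in the core, start 84 and 34 bases before the start site, and the windows printed for Acta2 and Myl6 overlap exons annotated for those genes.

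An exact CArG box on either strand was found for 8 of 33 genes (24.2%), namely Srf, Cnn2, Actg1, Vcl, Myl9, Myl6, Fhl1 and Fhl2, against 176 of 11059 tested genes with a promoter entry (1.59%) and 488 of all 27025 genes with one (1.81%). With 1 G or C allowed in the core, boxes were found for 12 of 33 genes (36.4%), against 1178 of the 11059 tested genes (10.7%), and the 4 added were Acta2, Flnc, Lpp and Tpm3. Genes with an exact box had a median log2 fold change of 0.24, with 2 of 8 called higher (Cnn2 and Myl6). Genes without one in these windows also had 0.24, with 10 of 25 called higher, among them Acta2 and Flnc with near boxes. With near boxes counted, 4 of 12 genes with a box (median 0.24) and 8 of 21 without (median 0.29) were called higher. Actb, Tagln and Actg2, all called higher, are in neither set because their promoters were not used. A match is a run of letters and does not show that SRF is bound there.

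Of the 4 actins, Acta2, Actb and Actg2 rose with IPRN by 1.18- to 1.34-fold, and Actg1 did not pass the test. Acta2 (smooth muscle α-actin, GRCm38 chr19:34241090-34255590, minus strand) had 2831, 2736 and 2698 CPM in IPRN 1, 2 and 3, against 2307, 2301 and 2376 CPM in DMSO 1, 2 and 3. Every IPRN library was above every DMSO library, and the difference was 1.18-fold (95% interval 1.11 to 1.26, log2 0.24 ± 0.0397, adjusted p = 0.0233). Acta2 was also the most abundant of the 39 genes per length, at 1129 ± 9.61 FPKM in IPRN libraries and 952 ± 15.1 FPKM in DMSO libraries. Actb, the cytoplasmic β-actin often used as a loading control (chr5:142903115-142906754, minus strand), had 2237, 2013 and 2293 CPM in IPRN 1, 2 and 3, against 1595, 1652 and 1633 CPM in DMSO 1, 2 and 3. Its 1.34-fold difference (95% interval 1.22 to 1.47, log2 0.42 ± 0.0573, adjusted p = 0.0137) was the largest of the 4 actins. Actg2, the γ-actin of gut smooth muscle (chr6:83512905-83536265, minus strand), was far less abundant, with 68.6, 68.4 and 64.2 CPM in IPRN 1, 2 and 3, against 55.8, 52.6 and 52.0 CPM in DMSO 1, 2 and 3. It rose 1.25-fold (log2 0.33 ± 0.0576, adjusted p = 0.0283). Actg1, the cytoplasmic γ-actin (chr11:120345690-120348542, minus strand), shares sequence with a pseudogene and had 2223, 2250.1 and 2068 CPM in IPRN 1, 2 and 3, against 1972, 1787 and 1793 CPM in DMSO 1, 2 and 3. Its groups did not overlap either, and its 1.18-fold difference missed the threshold (95% interval 1.07 to 1.30, adjusted p = 0.0656). Leaving out 1 library ended the calls of Acta2 and Actg2 in all cases but IPRN 1, with adjusted p up to 0.117 and 0.127, and that of Actb without DMSO 1, DMSO 2 or DMSO 3, with adjusted p up to 0.0762.

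The summed FPKM of the 4 actins was 2638 ± 23.8 in IPRN libraries, against 2153 ± 21.5 in DMSO libraries (SD, n = 3 each), and was higher in every IPRN library than in every DMSO library. Within it, Acta2 made up 42.8 ± 0.429% in IPRN libraries, against 44.2 ± 0.874% in DMSO libraries, and these groups did not overlap. The share of Actb was 27.8 ± 1.73% in IPRN libraries, against 25.3 ± 0.726% in DMSO libraries, where the lowest IPRN library and the highest DMSO library both rounded to 26.0%. The ratio of Acta2 to Actb was 1.55 ± 0.111 in IPRN libraries, against 1.75 ± 0.0411 in DMSO libraries, and every IPRN library was below every DMSO library. The ratio of Acta2 to Actg1, 1.53 ± 0.0544 in IPRN libraries, against 1.53 ± 0.0981 in DMSO libraries, overlapped between groups. These shares and this ratio use Actg1 alone, without the pseudogene that shares its sequence. That pseudogene, Gm12715, was listed unevenly, from 120 CPM in DMSO 1 to 400 CPM in IPRN 3. The ratio of Acta2 to the sum of both was not computed. Shares and ratios are given as values, with no test.

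Among the tropomyosins, coiled-coil proteins that lie along the filament, Tpm2 rose and Tpm1, Tpm3 and Tpm4 did not pass. Tpm2 (chr4:43514711-43523765, minus strand) had 286, 265 and 267 CPM in IPRN 1, 2 and 3, against 209, 227 and 205 CPM in DMSO 1, 2 and 3. Its lowest IPRN library lay above its highest DMSO library, and the difference was 1.27-fold (95% interval 1.16 to 1.40, log2 0.35 ± 0.0579, adjusted p = 0.0242). The call ended without DMSO 1, DMSO 2, DMSO 3, IPRN 2 or IPRN 3, with adjusted p up to 0.116. Tpm1 had 454, 408 and 419 CPM in IPRN 1, 2 and 3, against 377, 368 and 371 CPM in DMSO 1, 2 and 3. The groups did not overlap, at 1.15-fold and an adjusted p of 0.0806, and without IPRN 1 the adjusted p was 0.0493, past the threshold. Tpm4, the most abundant tropomyosin at 223 ± 13.3 FPKM in IPRN libraries and 216 ± 2.45 FPKM in DMSO libraries, differed by 1.03-fold (95% interval 0.935 to 1.14, adjusted p = 0.742). Tpm3 differed by 1.03-fold (95% interval 0.956 to 1.11, adjusted p = 0.669). In the composition of the family, the Tpm2 share of summed tropomyosin FPKM was 19.5 ± 0.335% in IPRN libraries, against 16.7 ± 0.763% in DMSO libraries. The Tpm4 share was 51.7 ± 0.790% in IPRN libraries, against 54.5 ± 0.362% in DMSO libraries. Neither share overlapped between groups.

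Transgelins and calponins bind along actin filaments and restrain or stabilise them, and several are classical smooth muscle markers. Tagln and Cnn2 rose, and Tagln2, Cnn1 and Cnn3 did not pass. Cnn2, a calponin of non-muscle cells (chr10:79988584-79996062, plus strand), had 582, 537 and 527 CPM in IPRN 1, 2 and 3, against 395, 396 and 399 CPM in DMSO 1, 2 and 3. The DMSO libraries lay close together and every IPRN library was well above them. The difference was 1.38-fold (95% interval 1.27 to 1.50, log2 0.47 ± 0.0510, adjusted p = 0.00631), and leaving out 1 library ended the call only without DMSO 1 (adjusted p = 0.0514). Tagln (transgelin, SM22α), whose exons overlap an antisense gene model, had 545, 545 and 520.4 CPM in IPRN 1, 2 and 3, against 432, 428 and 443 CPM in DMSO 1, 2 and 3. It was 1.24-fold higher (95% interval 1.15 to 1.33, log2 0.31 ± 0.0434, adjusted p = 0.0163) and missed the threshold without DMSO 1, DMSO 2, DMSO 3 or IPRN 2, with adjusted p up to 0.0910. Cnn1, the smooth muscle calponin, was scarce, with 4.21, 4.81 and 4.70 CPM in IPRN 1, 2 and 3, against 2.98, 4.05 and 3.42 CPM in DMSO 1, 2 and 3. Its IPRN libraries were above its DMSO libraries, but the spread was wide (1.31-fold, 95% interval 1.005 to 1.71, adjusted p = 0.219). Tagln2 differed by 1.15-fold (adjusted p = 0.0830), without overlap. Cnn3 had 267, 209.8 and 208 CPM in IPRN 1, 2 and 3, against 232, 224 and 244 CPM in DMSO 1, 2 and 3. Its groups overlapped (0.978-fold, adjusted p = 0.907). The ratio of Cnn2 to Cnn3 was 2.995 ± 0.265 in IPRN libraries, against 2.10 ± 0.0790 in DMSO libraries, without overlap.

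Myosin II, the motor of stress fibres, is a dimer of heavy chains with regulatory and essential light chains. Myh9, the heavy chain of non-muscle myosin IIA (chr15:77760587-77842175, minus strand), had 1864, 1798 and 1843 CPM in IPRN 1, 2 and 3, against 1299.9, 1278 and 1350.3 CPM in DMSO 1, 2 and 3. The gap between the groups was several times the spread within each, and the difference was 1.40-fold (95% interval 1.31 to 1.50, log2 0.49 ± 0.0418, adjusted p = 0.00237). Myh9 was called in all 6 fits that left out 1 library, with adjusted p up to 0.0252. Myh10, the heavy chain of myosin IIB, had 348, 326 and 341 CPM in IPRN 1, 2 and 3, against 321, 332 and 320.0 CPM in DMSO 1, 2 and 3. Its groups overlapped and the interval of its fold was 0.967 to 1.12 (adjusted p = 0.520). The ratio of Myh9 to Myh10 per length was 4.39 ± 0.0651 in IPRN libraries, against 3.27 ± 0.151 in DMSO libraries, without overlap. Myl6, the essential light chain, had 704, 675 and 688 CPM in IPRN 1, 2 and 3, against 607, 588 and 558 CPM in DMSO 1, 2 and 3. It was 1.18-fold higher (log2 0.24 ± 0.0482, adjusted p = 0.0395), and the call held without IPRN 1 and ended without any other library, with adjusted p up to 0.145. Myl9, the regulatory light chain of smooth muscle and non-muscle myosin, had 29.4, 23.9 and 23.3 CPM in IPRN 1, 2 and 3, against 22.8, 21.8 and 20.6 CPM in DMSO 1, 2 and 3. It did not pass (1.18-fold, 95% interval 0.981 to 1.41, adjusted p = 0.279). Mylk, the kinase that phosphorylates the regulatory light chain, was the least abundant of the 39 genes per length, at 0.173 ± 0.0393 FPKM in IPRN libraries and 0.216 ± 0.0507 FPKM in DMSO libraries, and its groups overlapped (adjusted p = 0.570).

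**Figure D3:**
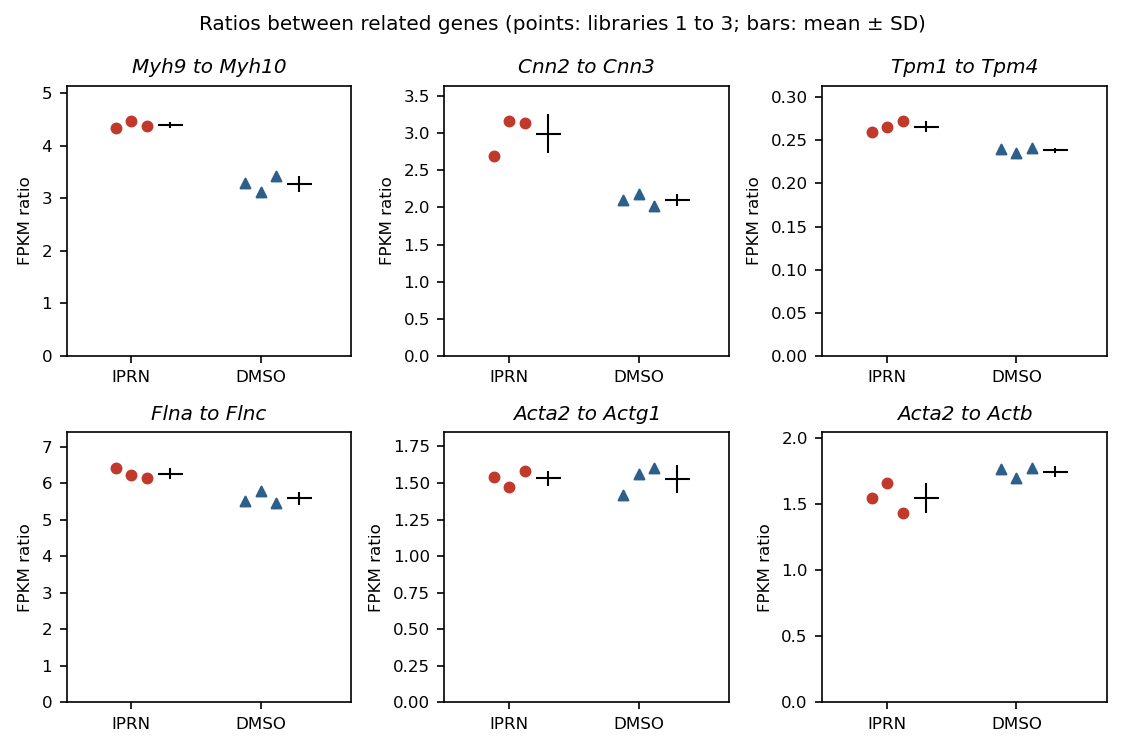
Each panel plots the ratio of the deposited FPKM of related genes in each library (circles IPRN, triangles DMSO), with crosses for the mean ± SD of 3 libraries and axes that start at 0. Myh9 to Myh10, Cnn2 to Cnn3, Tpm1 to Tpm4 and Flna to Flnc were higher in every IPRN library. Acta2 to Actb was lower in every one, and Acta2 to Actg1, with Actg1 taken alone, overlapped. Of the ratios not drawn, Tagln to Tagln2 and Tpm2 to Tpm1 were higher in every IPRN library. Actb to Actg1, Cnn1 to Cnn2, Actn1 to Actn4 and Myl6 to Myl9 overlapped. How often ratios of other gene pairs overlap was not counted.

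Crosslinkers and thin filament proteins held 4 of the 15 higher calls among 8 genes: Flna, Flnc, Actn1 and Palld. Flna, which encodes filamin A, a protein that joins filaments into networks (chrX:74223461-74249820, minus strand), had 3013, 3044 and 2934 CPM in IPRN 1, 2 and 3, against 2284, 2279 and 2321 CPM in DMSO 1, 2 and 3. Every IPRN library was far above every DMSO library (1.31-fold, 95% interval 1.23 to 1.39, log2 0.39 ± 0.0372, adjusted p = 0.00388). Flna, with Myh9, was called in all 6 fits that left out 1 library, with adjusted p up to 0.0381. Flnc, the filamin of striated muscle that fibroblasts also express, had 466, 486 and 475 CPM in IPRN 1, 2 and 3, against 411, 393 and 424 CPM in DMSO 1, 2 and 3. It was 1.16-fold higher (log2 0.22 ± 0.0473, adjusted p = 0.0474), and the ratio of Flna to Flnc was 6.26 ± 0.145 in IPRN libraries, against 5.58 ± 0.171 in DMSO libraries. Actn1, the α-actinin of stress fibres, had 704, 655 and 659.9 CPM in IPRN 1, 2 and 3, against 551, 530.3 and 559 CPM in DMSO 1, 2 and 3. It was 1.23-fold higher (log2 0.30 ± 0.0488, adjusted p = 0.0230). Palld (palladin, a scaffold of stress fibre bundles) had 169, 158 and 145 CPM in IPRN 1, 2 and 3, against 117, 124 and 129 CPM in DMSO 1, 2 and 3. It was 1.28-fold higher (log2 0.35 ± 0.0704, adjusted p = 0.0389). With 1 library left out, Flnc and Actn1 were called only without IPRN 1, with adjusted p up to 0.172 and 0.114, and Palld in none of the 6 fits, with adjusted p from 0.0502 to 0.146.

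The other 4 of this group did not pass. Actn4, the second non-muscle α-actinin, differed by 1.17-fold (adjusted p = 0.131) and Cald1 (caldesmon, which binds actin and myosin) by 1.21-fold (adjusted p = 0.0840), both without overlap. Lmod1 (leiomodin, which nucleates filaments in smooth muscle) averaged 3.47 ± 0.652 CPM in IPRN libraries, against 2.05 ± 0.543 CPM in DMSO libraries. Its 1.70-fold difference had the widest interval among the positive ones of this group, 1.12 to 2.58 (adjusted p = 0.136). Synpo (synaptopodin, an α-actinin partner) overlapped at 42.9 ± 8.17 CPM in IPRN libraries, against 47.8 ± 11.2 CPM in DMSO libraries (adjusted p = 0.718).

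Focal adhesion genes split: Tln1 rose, Tes fell, and Vcl, Zyx, Pxn and Lpp did not pass. Tln1 (talin 1, which links integrins to actin) had 545, 522 and 519.9 CPM in IPRN 1, 2 and 3, against 401, 402 and 421 CPM in DMSO 1, 2 and 3. All IPRN libraries were above all DMSO libraries (1.30-fold, 95% interval 1.20 to 1.40, log2 0.37 ± 0.0452, adjusted p = 0.00936), and the call ended without DMSO 1 or DMSO 2, with adjusted p up to 0.0656. Tes (testin, a LIM protein that binds zyxin at adhesions) had 100.4, 97.2 and 95.9 CPM in IPRN 1, 2 and 3, against 120.4, 125 and 122 CPM in DMSO 1, 2 and 3. It was the only one of the 39 called lower (0.800-fold, 95% interval 0.743 to 0.861, log2 -0.32 ± 0.0451, adjusted p = 0.0154). Every IPRN library was below every DMSO library, and the call ended without any library but IPRN 1, with adjusted p up to 0.0903. Vcl (vinculin, recruited to talin under tension), whose exons overlap those of Ap3m1 on the opposite strand, had 333, 282 and 219 CPM in IPRN 1, 2 and 3, against 239, 173 and 172 CPM in DMSO 1, 2 and 3. IPRN 3 lay below DMSO 1, so the groups overlapped and the 1.43-fold difference did not pass (95% interval 1.06 to 1.93, adjusted p = 0.159). Zyx (zyxin) averaged 513 ± 76.0 CPM in IPRN libraries, against 386 ± 75.3 CPM in DMSO libraries (adjusted p = 0.203). Pxn (paxillin, a scaffold for kinases) averaged 83.4 ± 12.2 CPM in IPRN libraries, against 65.0 ± 4.86 CPM in DMSO libraries (adjusted p = 0.115). Lpp, a zyxin relative, averaged 306 ± 8.78 CPM in IPRN libraries, against 269 ± 5.78 CPM in DMSO libraries (adjusted p = 0.0621). All 3 differed in the direction of Tln1, without overlap.

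Of the LIM and PDZ-LIM proteins, which dock on α-actinin and stress fibres, Csrp1 and Pdlim7 rose and 4 did not pass. Csrp1, a cysteine- and glycine-rich LIM protein of smooth muscle and fibroblasts, had 228, 189 and 179 CPM in IPRN 1, 2 and 3, against 136, 133 and 132 CPM in DMSO 1, 2 and 3. It held the largest fold among the higher calls (1.49-fold, 95% interval 1.28 to 1.73, log2 0.57 ± 0.0907, adjusted p = 0.0212). IPRN 1 was its highest library, and without IPRN 1 the call held with a log2 fold change of 0.46 (adjusted p = 0.00548), while it ended without DMSO 1, DMSO 2, DMSO 3 or IPRN 2. Pdlim7 (enigma) had 105, 101 and 93.1 CPM in IPRN 1, 2 and 3, against 79.8, 85.0 and 80.8 CPM in DMSO 1, 2 and 3. It was 1.22-fold higher (log2 0.29 ± 0.0619, adjusted p = 0.0467), close to the threshold, and was called in none of the 6 fits that left out 1 library (adjusted p from 0.0592 to 0.170). Fhl2, a LIM-only cofactor and adhesion protein, averaged 86.6 ± 2.52 CPM in IPRN libraries, against 93.1 ± 1.58 CPM in DMSO libraries. It was lower in IPRN without overlap and did not pass (adjusted p = 0.267). Csrp2 (1.10-fold, adjusted p = 0.518), Pdlim5 (1.01-fold, adjusted p = 0.915) and Fhl1 (1.22-fold, adjusted p = 0.691) overlapped between groups.

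**Figure D4:**
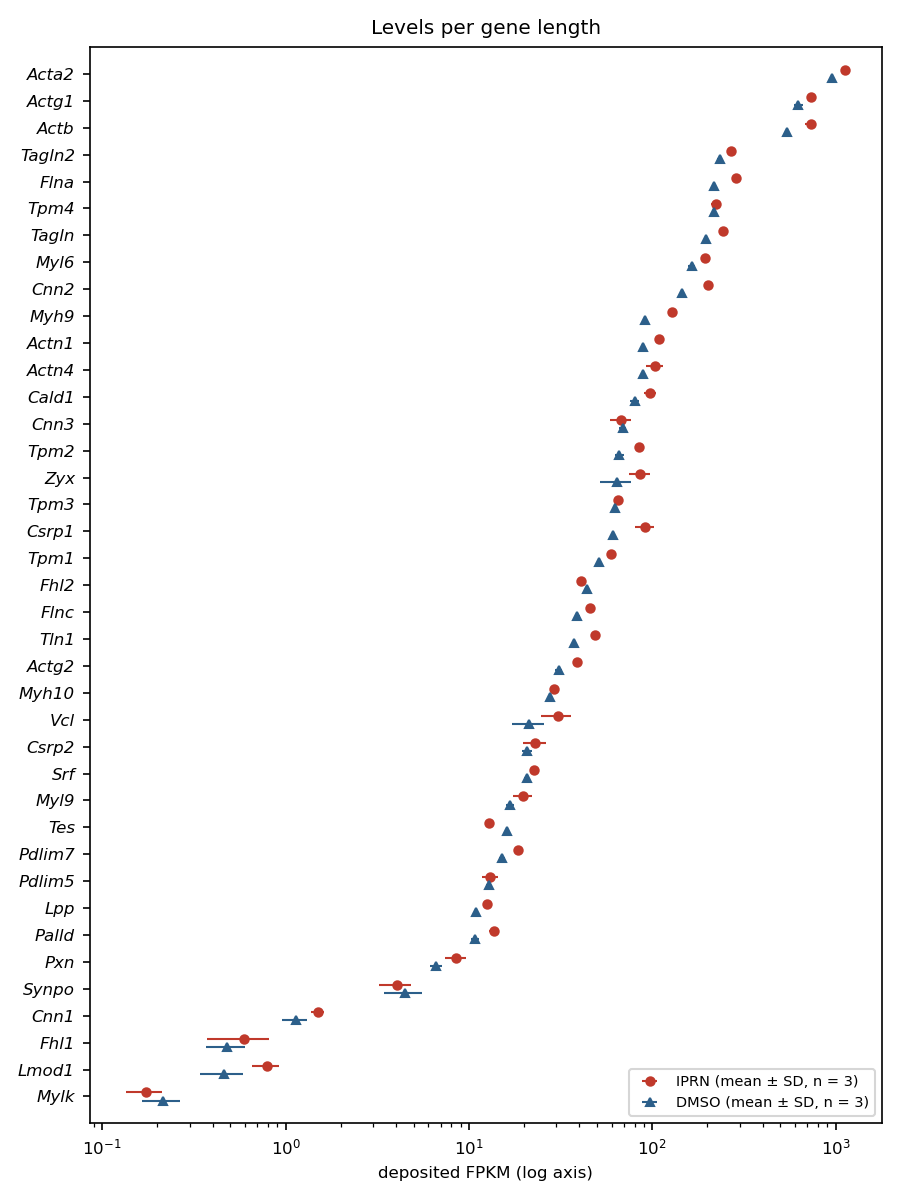
Points are mean deposited FPKM ± SD over 3 libraries on a log axis (circles IPRN, triangles DMSO), with genes ordered by their DMSO mean. Levels span from 952 FPKM for Acta2 to 0.216 FPKM for Mylk in DMSO libraries, and smooth muscle genes Cnn1, Lmod1 and Mylk stand at the low end.

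Several genes that define muscle cells were at or near 0, and others were not. By the deposited FPKM, the 3 most abundant genes were Acta2, Actg1 and Actb, and the 4 scarcest were Cnn1, Fhl1, Lmod1 and Mylk. Myocd was at 0 in every library and Myh11, the smooth muscle myosin heavy chain, was at 0.098 CPM or less. Of the skeletal and cardiac muscle markers, Actc1, Myh2, Myod1, Myog and Myl2 were at 0 in all 6 libraries, and all 17 summed to between 22.6 and 30.1 CPM in IPRN libraries and between 28.5 and 31.9 CPM in DMSO libraries. Most of that sum was Tnnt2, a troponin gene, at 24.1, 24.5 and 19.9 CPM in IPRN 1, 2 and 3, against 28.4, 23.5 and 26.9 CPM in DMSO 1, 2 and 3. The 8 smooth muscle markers, which include Actg2, Lmod1 and Mylk, summed to between 145 and 166 CPM in IPRN libraries, against 123 to 128 CPM in DMSO libraries. Smtn (smoothelin) was the largest of these, at 90.8, 75.8 and 75.3 CPM in IPRN 1, 2 and 3, against 64.0, 65.2 and 65.1 CPM in DMSO 1, 2 and 3, and did not pass (adjusted p = 0.0753). Of the 6 smooth muscle markers tested, only Actg2 was called, and their median log2 fold change was 0.0016. It was positive for Smtn, Actg2 and Lmod1, and negative for Des (-0.87), Synpo2 (-0.85) and Mylk (-0.31). Des and Synpo2 were scarce, at 0.454 and 0.773 CPM in IPRN libraries, against 0.829 and 1.40 CPM in DMSO libraries. In bulk RNA, more cells with these genes on and more RNA of these genes per cell cannot be told apart.

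Several of the 39 genes share sequence or exons with another gene model, and reads could be split between them. In GENCODE M21 transcripts, 6 of the 39 share 5% or more of their 100-base stretches with another model: Tagln 48.3%, Actg1 29.9%, Vcl 24.7%, Tpm3 15.8%, Cnn3 11.1% and Tpm4 9.22%. The library preparation does not mark strand, so Vcl and the opposite-strand gene Ap3m1, which overlap over 2090 exon bases, are not separable there, nor are Tagln and the antisense model Gm48529 over 1241 exon bases. Actg1 shares most with the processed pseudogene Gm12715. That pseudogene was listed at 375, 290.1 and 399.8 CPM in IPRN 1, 2 and 3, against 120.1, 272 and 351 CPM in DMSO 1, 2 and 3. Ap3m1, which encodes a subunit of a vesicle adaptor, was listed at 69.1, 50.6 and 127 CPM in IPRN 1, 2 and 3, against 61.3, 118 and 122 CPM in DMSO 1, 2 and 3. Where Vcl was low, in IPRN 3, DMSO 2 and DMSO 3, Ap3m1 was high.

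Summing each gene with its partner, an alternative chosen after seeing the data, changed the call of Actg1. Actg1 with Gm12715 had 2599, 2540.1 and 2468 CPM in IPRN 1, 2 and 3, against 2092, 2059.7 and 2144 CPM in DMSO 1, 2 and 3. This sum rose 1.21-fold (log2 0.27 ± 0.0406, adjusted p = 0.0180), where Actg1 alone had missed the threshold. Vcl with Ap3m1 had 402, 332 and 346 CPM in IPRN 1, 2 and 3, against 300.4, 291 and 294 CPM in DMSO 1, 2 and 3. The groups no longer overlapped, at 1.22-fold and an adjusted p of 0.0786, which did not pass. Tagln with Gm48529 was 1.24-fold higher (adjusted p = 0.0152). The sums for Tpm3, Tpm4 and Cnn3 differed by 1.03-, 1.03- and 0.981-fold and did not pass. Among the 33 genes that share less than 5%, 14 were called higher and 1 lower. Smaller overlaps of exons touch Tln1 (360 bases with Creb3), Actn1 (363 bases with Gm47766) and Tes (144 bases with Gm4876).

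**Figure D5:**
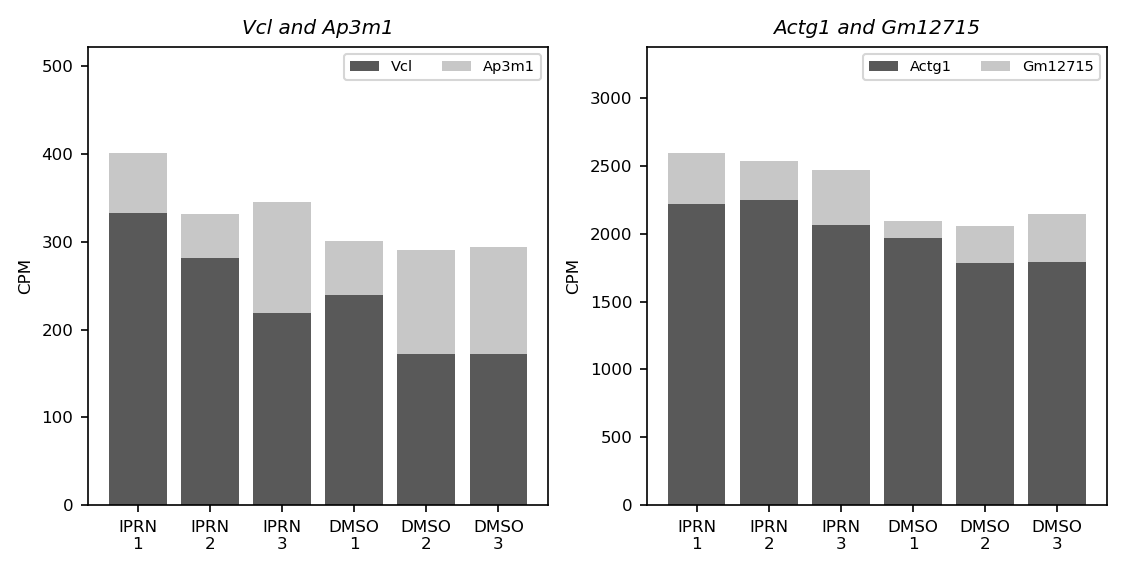
Bars from 0 show the CPM in each library of Vcl (dark) with Ap3m1 (light) stacked on it, and of Actg1 with Gm12715. The stacked height is higher in every IPRN library than in every DMSO library for both pairs, while Vcl alone is lower in IPRN 3 (219 CPM) than in DMSO 1 (239 CPM).

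Other genes of the pathway were read from named lists. Of 27 genes of actin assembly and turnover, 1 rose, 1 fell and 25 did not pass (median log2 fold change 0.0058), near the 2.46% higher and 3.01% lower of all genes tested. Tmsb10, a thymosin that binds actin monomers, averaged 734 ± 13.3 CPM in IPRN libraries, against 632 ± 16.3 CPM in DMSO libraries (1.16-fold, adjusted p = 0.0374). Capza2, a subunit of the barbed-end capping protein, averaged 238 ± 4.21 CPM in IPRN libraries, against 276 ± 4.37 CPM in DMSO libraries (0.87-fold, adjusted p = 0.0373).

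Of 23 other focal adhesion and integrin genes tested, 3 rose and 20 did not pass (median log2 fold change 0.12), against 2.46% higher over all genes tested and 6.85% over those at 100 CPM or more. Itga5, the α chain of the fibronectin receptor, averaged 420.0 ± 5.51 CPM in IPRN libraries, against 329 ± 10.2 CPM in DMSO libraries (1.28-fold, adjusted p = 0.0108). Ajuba, a LIM protein of adhesions and junctions, averaged 63.2 ± 5.62 CPM in IPRN libraries, against 45.7 ± 1.25 CPM in DMSO libraries (1.38-fold, adjusted p = 0.0238). Ilk, the integrin-linked pseudokinase, averaged 83.6 ± 4.14 CPM in IPRN libraries, against 69.9 ± 0.602 CPM in DMSO libraries (1.20-fold, adjusted p = 0.0438). Of the 5 genes called in these 2 lists, Itga5 lost its call without DMSO 1 or DMSO 2 (adjusted p up to 0.0714). Tmsb10, Capza2, Ajuba and Ilk were called only in the fit without IPRN 1 when 1 library was left out (adjusted p up to 0.163).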

How the data were processed

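Polyadenylated RNA of NIH3T3 cells was sequenced in 6 libraries, 3 per group. Groups and replicate numbers come from the labels. Per the file headers, the deposited tables, 1 per library, list whole-number counts and FPKM values by Ensembl gene ID. The counts were deposited without normalization. The authors scaled the deposited FPKM values by gene length and library size, and these were used only for levels, shares and ratios. Cutadapt 1.9 was used per the submitters' processing notes. The sources used here give no aligner, counting tool, strand handling or genome build. GENCODE M21 held 55141 of the gene IDs, and 94.2% of these had the same position on GRCm38, the build used here.

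The test of the counts was run in edgeR 4.0.16 (R 4.3.3), with TMM scaling, the default expression filter with a minimum count of 10, and the two-sided quasi-likelihood test on group, without other terms. P-values were adjusted by Benjamini-Hochberg over all 17159 genes that passed. Standard errors come from the fold change and the F statistic. The calling of genes, not the standard errors, was tried on simulated data. The outcome of that trial is not reported here and gives no support to the calls. DESeq2 1.42.0, limma 3.58.1 (voom), other scalings and filters, a replicate block and leaving out libraries served as alternatives. Since the labels do not name separate cultures, the spread behind the p-values may be technical. PCR copies were not told apart.

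The 39 genes and the pathway and marker lists were chosen with earlier results of these data known. All 39 are named. They are given in every library when called or among 10 set genes, and others where they help the description. In the pathway lists up to 3 called genes in each direction are named, and the results of some pathway genes are not reported here. CPM are scaled by TMM library sizes. Promoters are RefSeq entries of GRCm38.p6.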

Additional observations from a re-analysis of the deposited data

How the results depend on the processing

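No gene among the 39 changed sign in a call under the 17 alternatives. Of the results for a single gene under an alternative, 547 stayed on the same side of the threshold, called or not, 105 lost a call and 11 gained one. The 16 called genes kept their direction throughout. The count of all genes called was 938, and 15 of the 39 were higher and 1 lower. DESeq2 called 1911 genes, with 23 of the 39 higher. Without a filter on low counts 621 genes were called. A model term that set DMSO 1 and IPRN 3, low in liver transcripts, apart left 429 genes, with 9 of the 39 higher. Without both DMSO 1 and IPRN 3, 53 genes were called and 0 of the 39 were higher and 0 lower in edgeR, against 23 and 2 at an unadjusted p under 0.05. That fit rests on 2 libraries a group. Leaving out 1 library in turn gave 133 to 1047 genes, 2 to 14 of the 39 higher and 0 to 1 lower. With the replicate block, 103 genes were called, 1 of the 39 higher (Myh9) and 0 lower, against 25 and 1 at an unadjusted p under 0.05. No share of all genes at an unadjusted p under 0.05 was counted to set beside such counts. The labels do not say whether the replicate numbers pair the samples. Deviations of same-numbered libraries from their group means correlated at r = -0.18, 0.086 and -0.13. The highest correlation, 0.24, was between IPRN 3 and DMSO 1. Deviations within a group of 3 libraries sum to 0, so these correlations cannot settle whether same-numbered libraries share a batch. Scaling moved the median log2 fold change of all genes by less than 0.01. Fits with fewer libraries or more terms hold fewer residual degrees of freedom, and the cause of the shifts between fits was not tested. With 3 libraries a group, the smallest fold called among the 39 was 1.16, and Fhl1, Lmod1 and Mylk, under 10 CPM, had the widest intervals on the log2 scale.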

Other observations

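Myl12a, a non-muscle regulatory light chain outside the 39 genes, was listed at 176, 241 and 216 CPM in IPRN 1, 2 and 3, against 447, 238 and 227 CPM in DMSO 1, 2 and 3. DMSO 1 stood alone. Myl12b, a closely related light chain gene, had 42.7, 24.4 and 33.2 CPM in IPRN 1, 2 and 3, against 33.8, 34.1 and 27.7 CPM in DMSO 1, 2 and 3.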
